A study of Mus musculus with 43 samples.

Results

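Messenger RNA was followed for 34 genes of the endoplasmic reticulum stress response and the integrated stress response in CD4 T cells that had met antigen at different levels and for different times. The members were taken by name from a list of stress sensors, their transcription factors, chaperones, disulfide isomerases, degradation factors and stress targets. Of these 34 genes 33 had a probe set that carried their symbol alone, out of 22180 such genes on the array. The only probe set of Pdia4 is shared with Mir704, so Pdia4 was not analysed here. One probe set stood for each gene, and values are log2 signals as deposited, so differences are log2 fold changes.

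Proteins that are secreted or sit in membranes fold inside the endoplasmic reticulum with the help of chaperones and of isomerases that set their disulfide bonds. When folding falls behind, the sensors Ern1 (IRE1), Eif2ak3 (PERK) and Atf6 start the unfolded protein response, which through spliced Xbp1, Atf4 and cleaved Atf6 raises chaperones and the machinery that exports misfolded proteins for degradation. The integrated stress response is the branch that several kinases share: phosphorylated eIF2 slows translation but favours Atf4, which induces Ddit3 (CHOP), Trib3, Asns and other targets. In T cells this machinery is known to expand as activated cells grow and begin to secrete. Sensor activity, Xbp1 splicing, Atf6 cleavage and eIF2 phosphorylation are not visible in total transcript levels.

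The 43 arrays came from AND T cells, which bear 1 transgenic receptor for a moth cytochrome c (MCC) peptide, lack Rag2 and are marked by CD45.1. Per the labels the cells were given to recipients treated on the previous day with anti-CD40 antibody, and were recovered by repeated sorting as CD4+CD90.2+CD45.1+. In iMCC recipients doxycycline in the drinking water switches on the peptide in dendritic cells, and the groups called none, low and intermediate all started on 100 µg/ml. From day 3 the drug was stopped in the none group, cut to 10 µg/ml in the low group and kept at 100 µg/ml in the intermediate group, and each was sorted on day 10 or on day 30. The off group, sorted on day 30, was kept like the intermediate group until day 10 and then left without drug. The high group, sorted on day 10, was in cMCC recipients, a different strain that makes the peptide at high level and at all times in MHC class II cells, with no doxycycline, so strain, presenting cells and antigen level cannot be told apart there. By day 30 AND cells in cMCC mice are lost by apoptosis, per the labels, and that group has no later counterpart. The naive group was sorted 3 days after transfer into mice without the transgenes and without doxycycline.

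On day 10 there were 5 arrays each for none and low antigen and 4 each for intermediate and high. The naive group and all 4 day 30 groups had 5 each. Day 30 was a second series of sorts, so its time and its sort series cannot be told apart. Separate mice within a group are not mentioned in the labels. The p-values therefore rest on a spread among samples that could be technical, and the number of arrays limits precision throughout. Array medians ran from 3.28 to 3.44. Group means of Cd4 were 9.12 to 10.0, those of Thy1 (CD90) 10.12 to 11.20, lowest in the high group, and those of Rag2 2.59 to 3.04. The mean of 6 T cell markers was 10.0 to 10.6 on every array, and that of 7 B cell markers stood at 3.16 to 3.74 on all arrays but those of the naive group, where 3 of the 5 arrays had 3.77, 4.25 and 5.32. The arrays of naive replicates 3 and 4 also had the highest myeloid marker means, 6.03 and 5.43, and comparisons with the naive group are therefore also given without them where that matters. In RNA from a sorted bulk population, fewer cells with a transcript and less transcript in each cell cannot be told apart.

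The endoplasmic reticulum stress element (ERSE) is shown first because it is the textbook link between the sensors and the chaperone genes. It is bound by Atf6 together with the factor NF-Y. RefSeq promoters (GRCm38.p6), each running from 250 bases before the start of a gene to 50 after it, were listed for 29 of the 34 members. ERSE was searched on both strands as CCAAT, 9 bases of any kind and CCACG. It was found in 9 of the 29 members and in 0.137% of all 27025 genes of the table. The members were listed as genes of this pathway, so the share in them is a description. The 10 matches are written on the strand where they read from CCAAT to CCACG, with those boxes in capitals.

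Calr: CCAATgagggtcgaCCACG
Canx: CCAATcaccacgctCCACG
Creld2: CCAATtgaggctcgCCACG
Derl3: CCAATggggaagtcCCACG
Dnajc3: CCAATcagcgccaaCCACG
Hsp90b1, upstream match: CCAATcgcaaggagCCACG
Hsp90b1, downstream match: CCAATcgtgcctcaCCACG
Hspa5: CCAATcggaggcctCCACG
Pdia6: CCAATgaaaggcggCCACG
Syvn1: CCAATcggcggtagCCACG

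Counted from the start site as base 1, the matches began between base -212, the upstream match of Hsp90b1, and base -44, that of Syvn1. The members were also searched for other elements of the pathway. ERSE-II, written as ATTGG, 1 base and CCACG, was in Dnajb11 and Herpud1 and in 0.0444% of genes. UPRE, either TGACGTGG or TGACGTGA, was in Hspa5 alone and in 1.22% of genes. The Atf4 element CARE, TGATGNAAN, was in Asns, Chac1, Herpud1 and Trib3 and in 4.50% of genes. A match is a run of letters in a window and not a measured binding site.

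Whole promoters are given for 4 members called in 2 or 3 comparisons each, chosen to show both kinds, with any ERSE in capitals on whichever strand it lies. Hsp90b1 (chr10:86705395-86705694, minus strand) and Calr (chr8:84846882-84847181, minus strand) hold the element. Sdf2l1 (chr16:17132334-17132633, minus strand) and Ppp1r15a (chr7:45526219-45526518, minus strand) do not hold any of the 4 elements in this window.

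Hsp90b1: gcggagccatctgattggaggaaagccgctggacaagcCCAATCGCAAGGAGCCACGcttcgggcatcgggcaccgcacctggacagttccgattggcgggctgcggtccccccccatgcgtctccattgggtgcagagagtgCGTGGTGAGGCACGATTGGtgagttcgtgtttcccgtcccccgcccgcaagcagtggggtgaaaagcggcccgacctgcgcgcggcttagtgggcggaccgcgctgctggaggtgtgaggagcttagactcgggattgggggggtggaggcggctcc
Calr: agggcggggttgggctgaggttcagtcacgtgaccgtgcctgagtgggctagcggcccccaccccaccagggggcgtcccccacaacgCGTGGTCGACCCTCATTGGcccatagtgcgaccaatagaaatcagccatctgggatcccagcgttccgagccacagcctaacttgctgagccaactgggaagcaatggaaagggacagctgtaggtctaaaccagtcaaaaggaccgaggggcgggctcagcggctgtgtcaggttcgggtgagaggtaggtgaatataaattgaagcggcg
Sdf2l1: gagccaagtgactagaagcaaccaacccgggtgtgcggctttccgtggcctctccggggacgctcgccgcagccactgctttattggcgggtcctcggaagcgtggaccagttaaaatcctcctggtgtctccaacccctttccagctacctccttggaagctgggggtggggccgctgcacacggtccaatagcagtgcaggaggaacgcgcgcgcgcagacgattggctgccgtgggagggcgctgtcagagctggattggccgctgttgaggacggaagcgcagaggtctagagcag
Ppp1r15a: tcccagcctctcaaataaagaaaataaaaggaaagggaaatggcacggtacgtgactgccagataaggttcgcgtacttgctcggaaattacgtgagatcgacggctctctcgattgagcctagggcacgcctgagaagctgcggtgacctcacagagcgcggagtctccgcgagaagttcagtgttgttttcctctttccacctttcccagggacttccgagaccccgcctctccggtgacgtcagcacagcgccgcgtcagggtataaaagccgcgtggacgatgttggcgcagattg

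Across the 9 groups the members did not move as a block. The mean of the 33 members was 6.24 ± 0.11 (SD, n = 5) in naive cells. On day 10 it was 6.38 ± 0.11 with none (n = 5), 6.50 ± 0.06 with low (n = 5), 6.42 ± 0.05 with intermediate (n = 4) and 6.61 ± 0.22 with high antigen (n = 4). On day 30 it was 6.26 ± 0.09 with none, 6.38 ± 0.11 with low, 6.34 ± 0.13 with intermediate and 6.41 ± 0.07 in the off group (n = 5 each). The 4 high arrays alone covered 6.32, 6.72, 6.84 and 6.56 for replicates 2 to 5, a wider range than that of the 9 group means. The high group nevertheless had the highest group mean for 18 of the 33 members, where it had it for 15.0% of all genes. The none group of day 30 had the highest mean for 0 of the 33 members, against 16.8% of all genes. Of the members 27 had a mean level of 4 or above, against 8411 of all 22180 genes. The shares here and in single comparisons are not given for genes at that level alone.

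**Figure D1:**
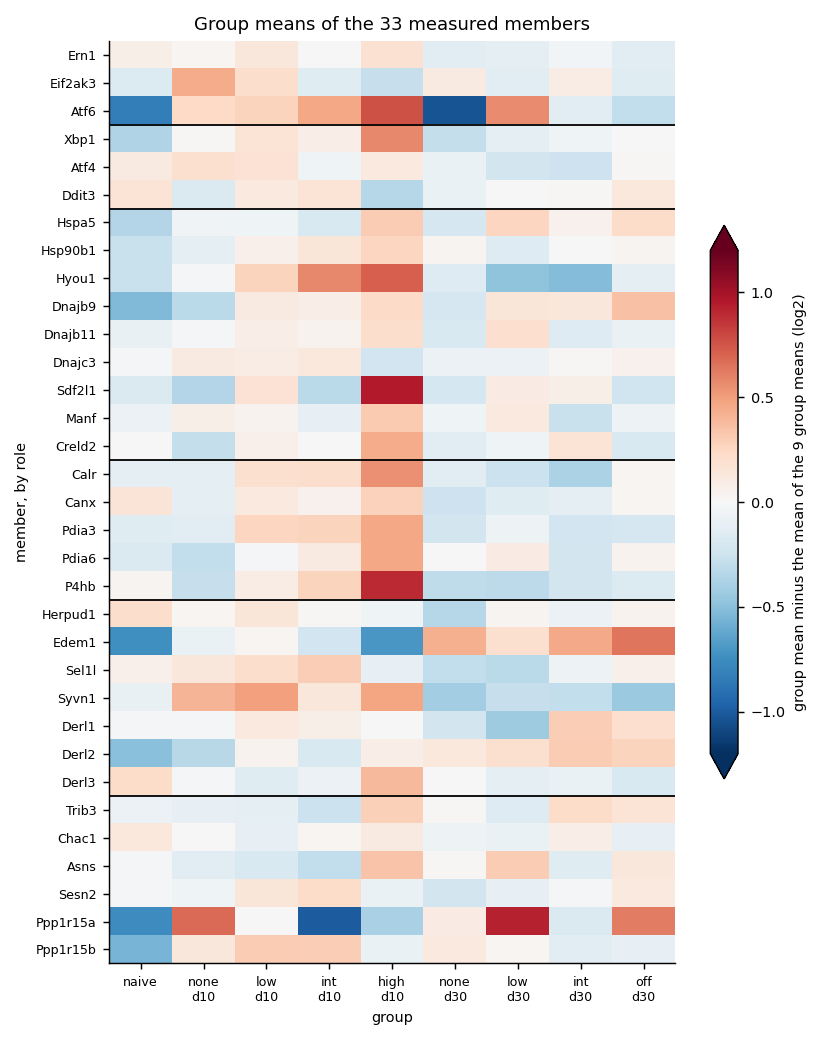
Group means of the 33 measured members (rows, grouped by role with black lines between roles) in the 9 groups (columns), each as the difference in log2 from the mean of the 9 group means of that gene. The high group of day 10 is the warmest column for the chaperones and isomerases except Dnajb9, highest in the off group, and Dnajc3, lowest in the high group. Atf6 is low in naive cells and in the none group of day 30, and Ppp1r15a is high in the none group of day 10 and the low group of day 30.

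On day 10 protein disulfide isomerases and several chaperones were higher in the high group, from cMCC recipients, than in the none group, from iMCC recipients. P4hb (log2 difference 1.17), Pdia6 (0.77) and Pdia3 (0.60), the lectin chaperone Calr (0.66), Sdf2l1 (1.30) and Hsp90b1 (0.37) rose, while Eif2ak3 (-0.73) and Ppp1r15a (-1.08) fell. In all 6 of 33 members were called higher and 2 lower at an adjusted p under 0.05 (limma, Benjamini-Hochberg over 22180 genes), where 2.77% of all genes were called higher and 2.48% lower. The median difference of the 33 members was 0.34 and that of all genes 0.01. The comparison sets cells under constant antigen in one recipient strain against cells of another strain that saw antigen only in the first days, so "high antigen" below names the group and not a cause. Of the 6 rises only those of P4hb and Sdf2l1 were kept on leaving out each array in turn.

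The lectin chaperones and disulfide isomerases were the role with most calls, 4 of 5 measured members. P4hb, the classical protein disulfide isomerase, had values of 6.05, 6.21, 6.18, 6.70 and 6.57 on the none arrays and 7.73, 7.70, 7.76 and 6.87 on the high arrays. Every high array lay above every none array, but replicate 5 of the high group lay well below the other 3. The difference was 1.17 ± 0.24 (SE; limma adjusted p 0.000751), and it stayed called on leaving out each array in turn (1.09 to 1.39).

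Pdia3, the isomerase that works with the lectin chaperones on glycoproteins, read 8.25, 9.13, 8.80, 8.69 and 9.11 with none and 8.87, 9.65, 9.72 and 9.33 with high antigen. Only replicate 2 of the high group fell among the none arrays. Its difference was 0.60 ± 0.17 (limma adjusted p 0.0273). Pdia6, another isomerase, read 6.10, 6.49, 6.12, 5.94 and 6.50 with none and 5.93, 7.33, 7.77 and 6.95 with high antigen. Replicate 2 of the high group was below all none arrays and the other 3 were above them. The difference was 0.77 ± 0.24 (limma adjusted p 0.0482). Calr (calreticulin), which holds glycoproteins until they are folded and buffers calcium, read 8.24, 8.64, 8.17, 8.64 and 8.57 with none and 8.70, 9.45, 9.37 and 8.92 with high antigen. The groups did not overlap, and the difference was 0.66 ± 0.17 (limma adjusted p 0.00904). Canx (calnexin), the membrane-bound counterpart of calreticulin, was not called at 0.39 ± 0.14 (limma adjusted p 0.114).

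**Figure D2:**
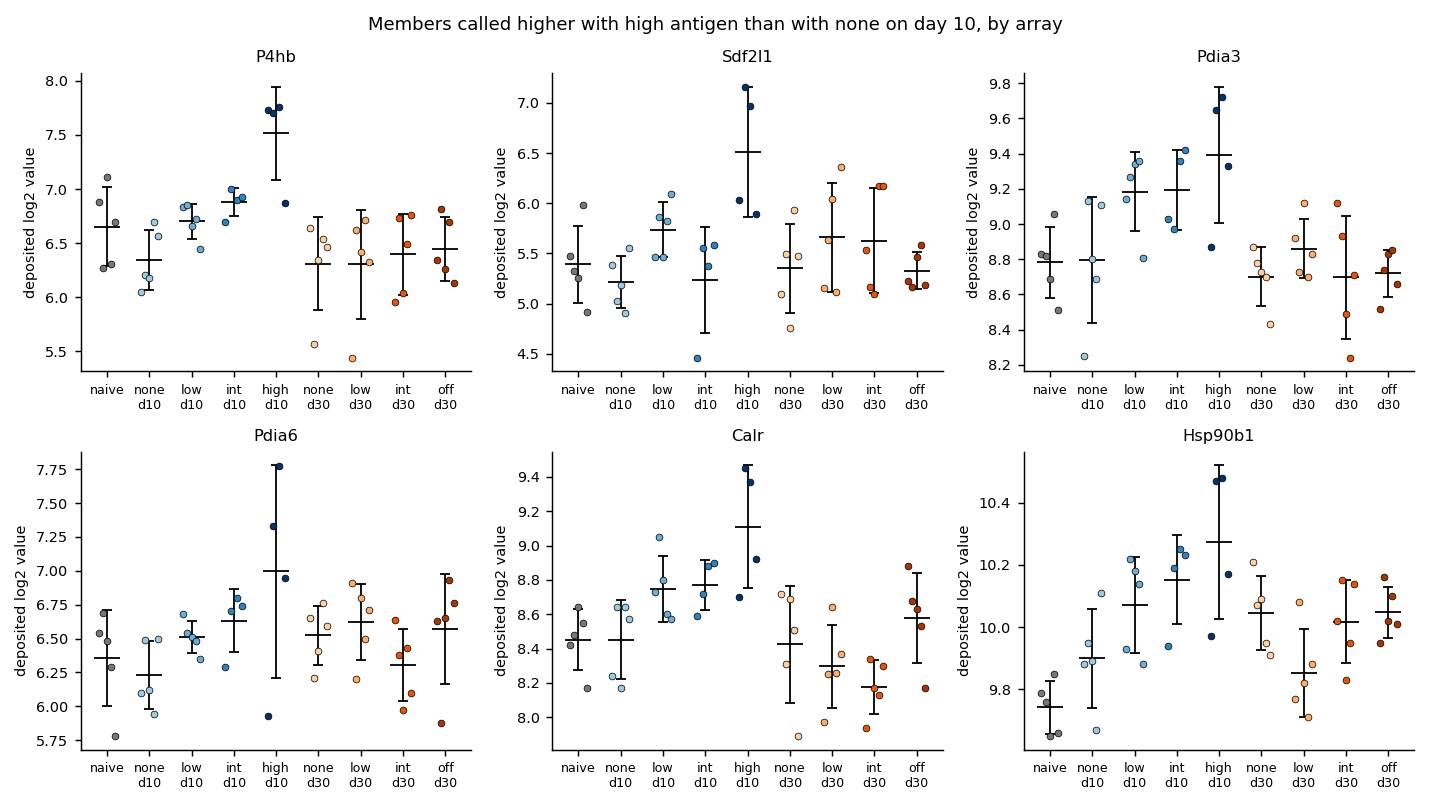
Deposited log2 values of the 6 members called higher with high antigen than with none on day 10, 1 point per array, in all 9 groups, with horizontal marks for the mean and bars for the SD over arrays. High replicates 3 and 4 are at or near the top of every panel, and high replicate 2 falls within or below the none arrays of day 10 for Pdia3, Pdia6 and Hsp90b1.

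Among the chaperones and their cofactors 2 of 9 were called. Sdf2l1, a partner of the Hsp70 chaperone BiP in the endoplasmic reticulum, read 5.38, 5.03, 5.19, 4.91 and 5.55 with none and 6.03, 7.16, 6.97 and 5.89 with high antigen. All 4 high arrays lay above all 5 none arrays, and the difference of 1.30 ± 0.28 (limma adjusted p 0.00191) stayed called on leaving out each array. Hsp90b1 (GRP94), the Hsp90 of this compartment, read 9.88, 9.95, 9.89, 9.67 and 10.11 with none and 9.97, 10.47, 10.48 and 10.17 with high antigen, a difference of 0.37 ± 0.10 (limma adjusted p 0.0183) with replicate 2 of the high group inside the none range. Hspa5 (BiP), the chaperone that keeps the sensors silent, was not called at 0.34 ± 0.16 (limma adjusted p 0.256). Creld2, a secreted stress-induced factor, had 4 of 4 high arrays above all none arrays at 0.73 ± 0.23, and its limma adjusted p was 0.0563. The number of all genes whose arrays separate in this way was not counted. The other members of the role that were not called ran from -0.34 (Dnajc3) to 0.74 (Hyou1).

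None of the 6 sensors and transcription factors was called higher. Eif2ak3, the kinase that phosphorylates eIF2 under stress of the endoplasmic reticulum, read 4.67, 4.61, 4.53, 4.37 and 4.49 with none and 3.82, 3.59, 3.71 and 4.10 with high antigen. The high arrays all lay below the none arrays, with a difference of -0.73 ± 0.21 (limma adjusted p 0.0272). Its mean over all arrays, 4.10, was not far above the median of all genes, 3.39. Differences of the other factors were not called: Ern1 0.15 ± 0.21, Atf6 0.52 ± 0.26, Xbp1 0.56 ± 0.23, Atf4 -0.07 ± 0.14 and Ddit3 -0.17 ± 0.26 (limma adjusted p 0.807, 0.306, 0.181, 0.87 and 0.835). The degradation factors, 7 in number, had 0 calls and differences from -0.62 (Edem1) to 0.41 (Derl2). Of the integrated stress response targets Asns (0.47 ± 0.20), Trib3 (0.38 ± 0.19), Chac1 (0.11 ± 0.16) and Sesn2 (-0.03 ± 0.16) were not called. These 4 genes, Ern1 and Derl3 had mean levels of 3.06 to 3.72 over all arrays, around that median, and what the array can resolve at such levels was not tested.

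The calls of the high group rested on few arrays. Leaving out high replicate 3 or high replicate 4 took the number of members called from 8 to 3 in both cases, with Calr, Hsp90b1, Pdia3, Pdia6 and Eif2ak3 lost. A fit of only the high and none arrays also called 3, namely P4hb, Sdf2l1 and Eif2ak3, and without none replicate 1 or none replicate 4 of day 10 there were 5. Leaving out high replicate 2, which had the lowest T cell marker mean of all high arrays (10.03 against 10.51 to 10.53), left 8 calls, all higher: the 6 above with Canx and Hyou1, while Eif2ak3 and Ppp1r15a were no longer called. P4hb and Sdf2l1 were called in each of these cases.

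Cell cycle genes and receptor-induced genes moved with this contrast. Of 13 cell cycle genes 7 were called higher with high antigen, Top2a by 2.74, and the list's mean was 5.42, 5.30, 5.64 and 4.66 on high replicates 2 to 5 against 4.23 to 4.37 on the none arrays. Replicate 5, the lowest of the high arrays for P4hb and Sdf2l1, was also the lowest for the cell cycle list. Replicate 2, the lowest for Pdia3, Pdia6, Calr and Hsp90b1, was not the lowest for that list. Of 12 receptor-induced genes 9 were called higher, with a mean of 6.86 to 7.75 on high arrays and of 5.27 to 5.78 on none arrays. The part of either in the chaperone calls was not tested. Among markers of cell identity, 4 were called in this contrast. The sort marker Thy1 was 1.07 lower with high antigen (limma adjusted p 4.19e-09), Klrb1c, the NK cell receptor NK1.1, was 1.60 higher (4.67 to 6.80 on high arrays, 3.98 to 4.59 on none arrays), Cst3 was 0.86 higher and Ighm 0.54 lower. S100a9 was not called, at 4.17 to 5.52 on high and 4.17 to 7.97 on none arrays. S100a8 read 6.70, 5.59, 4.59 and 4.81 on high and 5.31, 3.60, 8.16, 8.27 and 7.57 on none arrays. The myeloid marker mean was 3.79 to 4.05 on high and 3.70 to 4.42 on none arrays. The part of these in the chaperone calls was not tested either. The mean of the plasma cell markers without Xbp1 and Derl3 was 4.18 to 4.24 on the high arrays and 4.20 to 4.30 on the none arrays, and that of the B cell markers was 3.16 to 3.45 and 3.21 to 3.48.

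**Figure D3:**
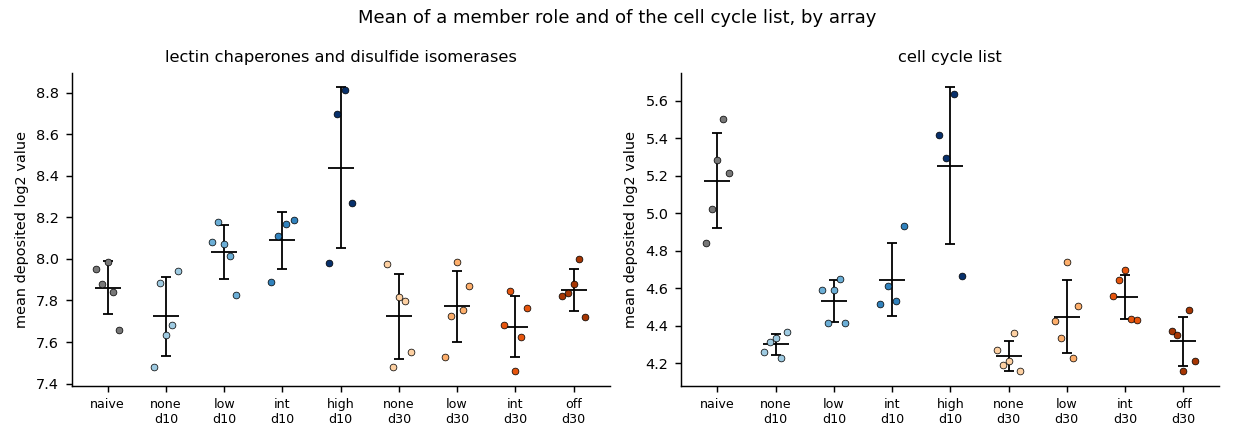
Mean deposited log2 value of the 5 measured lectin chaperones and disulfide isomerases (left) and of 13 cell cycle genes (right), 1 point per array, with mean and SD by group. The high arrays of day 10 reach from 7.98 to 8.81 on the left and from 4.66 to 5.64 on the right, and naive cells are high on the right (4.84 to 5.50) but not on the left.

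Of the 9 members with ERSE, 3 were called higher (Calr, Hsp90b1 and Pdia6), 8 had a difference above 0, and the median difference was 0.39. Of the 19 measured members with a promoter entry and no ERSE, 3 were called higher (P4hb, Pdia3 and Sdf2l1) and 2 lower, 11 had a difference above 0, and the median was 0.16. Of all genes 2.77% were called higher. Of the 5 members with no promoter entry 0 were called, 4 had a difference above 0, and the median was 0.24. The 2 largest rises, Sdf2l1 and P4hb, belonged to genes in which the window held no exact match. The part of the element in these differences was not tested.

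Low and intermediate antigen on day 10 gave 1 call between them. With low antigen 0 of 33 members were called by limma, where 0.00451% of all genes were. Pdia3 differed by 0.39 ± 0.16 and Ppp1r15a by -0.68 ± 0.29, neither of them called. With intermediate antigen Ppp1r15a fell by 1.68 on the log2 scale and was the only call, 1 of 33 members, where 0.46% of all genes were called lower. The self-test was run for the high and none groups only. It recovered 14% of planted changes of 0.5 and 70% of those of 1, so small shifts would mostly go uncalled in that comparison. Recovery with low or intermediate antigen was not simulated.

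Values of the 6 genes that rose with high antigen were as follows at the lower levels. Against none, P4hb differed by 0.36 ± 0.22 with low and 0.54 ± 0.24 with intermediate antigen, Pdia3 by 0.39 ± 0.16 and 0.40 ± 0.17, and Calr by 0.30 ± 0.16 and 0.32 ± 0.17. Pdia6 differed by 0.28 ± 0.22 and 0.40 ± 0.24, and Hsp90b1 by 0.17 ± 0.10 and 0.25 ± 0.10. Sdf2l1 differed by 0.53 ± 0.27 with low and 0.03 ± 0.28 with intermediate antigen. None of these 12 differences was called, and all 3 comparisons share the none arrays. The sensors, their factors and Hspa5 ranged from -0.24 (Eif2ak3) to 0.29 (Ddit3) with low antigen and from -0.59 (Eif2ak3, limma adjusted p 0.226) to 0.33 (Ddit3) with intermediate antigen, none of them called.

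**Figure D4:**
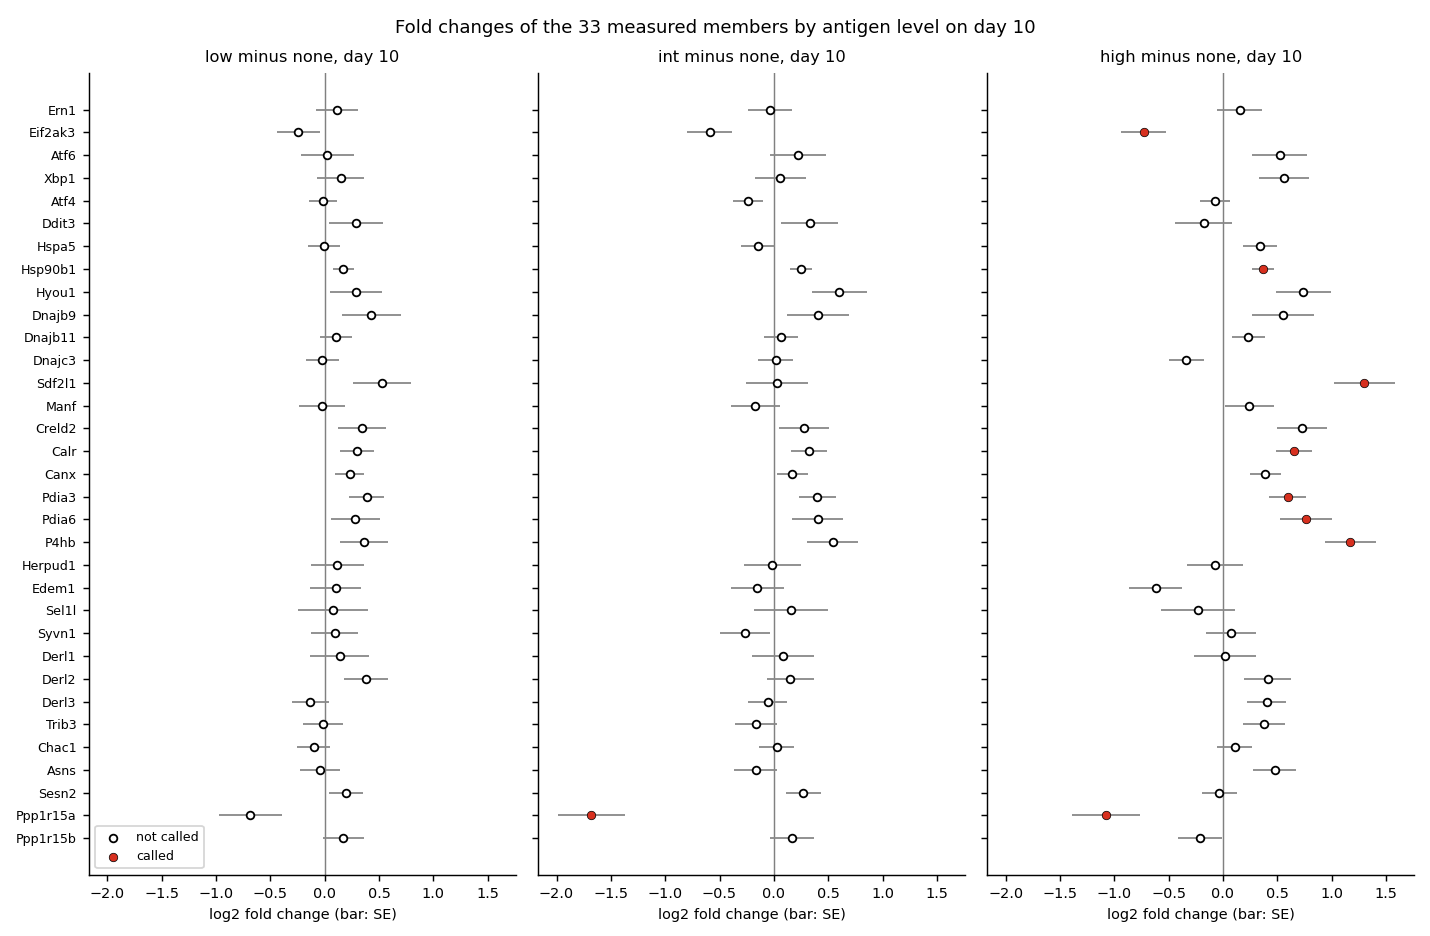
Log2 fold changes (points) with SE (bars) of the 33 measured members for low, intermediate (int) and high antigen against none on day 10, in the order of their roles; filled points passed an adjusted p under 0.05 in limma. The right panel holds 8 filled points, the middle panel 1 (Ppp1r15a) and the left panel 0.

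High was also set directly against intermediate antigen on day 10. Sdf2l1 alone was called, 1 of 33 members, where 1.4% of all genes were called higher. Its values were 4.46, 5.55, 5.37 and 5.58 with intermediate antigen and lay below all high arrays, with a difference of 1.27 ± 0.30 (limma adjusted p 0.00702). It was no longer called without high replicate 3 (limma adjusted p 0.0651) or intermediate replicate 1 (0.0786), or in a fit of only these groups (0.0834). For the other genes that were higher with high antigen than with none, the direct difference was not called: P4hb 0.63 ± 0.25, Calr 0.34 ± 0.17, Pdia6 0.36 ± 0.25, Pdia3 0.20 ± 0.18 and Hsp90b1 0.12 ± 0.11 (limma adjusted p 0.207, 0.412, 0.601, 0.734 and 0.728). A difference between high and intermediate antigen was therefore called for Sdf2l1 among these 6 and not for the other 5. Hspa5 differed by 0.49 (limma adjusted p 0.114), Xbp1 by 0.50 (0.362), Atf6 by 0.30 (0.73), Ern1 by 0.19 (0.81), Atf4 by 0.17 (0.72), Eif2ak3 by -0.14 (0.881) and Ddit3 by -0.51 (0.454).

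Atf6, the membrane-bound factor that is cut free under stress and induces chaperones, had the most calls of all members, 6 of the 16 comparisons. Its transcript was low in naive cells, higher in every day 10 group with or without antigen, and low again in the none group of day 30. The group means of day 30 were 4.50 with none, 5.25 in the off group, 5.41 with intermediate and 6.10 with low antigen. The off group, also without drug from day 10, thus lay nearer to the intermediate group than to the none group. Naive arrays read 4.41, 4.52, 5.30, 4.41 and 4.90. On day 10 the none arrays read 5.85, 5.82, 6.03, 5.05 and 6.16, low arrays 5.56 to 6.08, intermediate arrays 5.60 to 6.31 and high arrays 5.98 to 6.79. On day 30 the none arrays read 4.30, 5.13, 5.02, 3.97 and 4.08.

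On day 30 the low arrays read 6.30, 5.68, 6.25, 5.87 and 6.41 for Atf6, each above every none array. The difference was 1.60 ± 0.24 (limma adjusted p 9.97e-05) and was called in every alternative tried, and Atf6 was the only call, 1 of 33 members, where 0.388% of all genes were called higher. The intermediate arrays read 5.72, 5.20, 5.83, 4.83 and 5.46, of which replicate 4 fell within the none range. That difference was 0.91 ± 0.24 (limma adjusted p 0.0307), again 1 of 33 members where 1.42% of all genes were called higher. It was lost on leaving out intermediate replicate 1, 3 or 5 or none replicate 1, 4 or 5 of day 30, each alone (limma adjusted p 0.063 to 0.11). The off arrays read 5.32, 5.67, 5.29, 4.53 and 5.43, and their difference from none, 0.75 ± 0.24, was not called (limma adjusted p 0.189).

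Whether the antigen effect on Atf6 differed between days was tested directly, the test of the low effect being added after values were seen. Low minus none was 1.58 ± 0.34 larger on day 30 than on day 10, with a limma adjusted p of 0.0738, and intermediate minus none was 0.69 ± 0.35 larger, with 0.756. For the low effect 0 of 33 members were called where 0.0316% of all genes were. Atf6 was called, 1 of 33 members, in only some of the alternatives, which left out each array of these groups in turn or changed a setting. The fits that called it were those without none replicate 4 of day 10, without none replicate 2 of day 30, with the replicate block and with array weights. It was also called among genes at level 4 or above, and without naive replicates 3 and 4 and none replicate 4 and high replicate 2 of day 10 together. For the intermediate effect 0 of 33 members were called where 0.0902% of all genes were. In cells without antigen Atf6 fell between day 10 and day 30 by 1.28 on the log2 scale (SE 0.24; limma adjusted p 0.00175), and 4 of 5 day 30 arrays lay below all day 10 arrays.

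Ppp1r15a (GADD34), the subunit that directs a phosphatase to eIF2 and so ends the stress response, had the widest range of group means among the members, 1.92. Naive arrays read 6.22, 5.91, 5.67, 6.09 and 5.36. The none arrays of day 10 read 6.43, 8.52, 6.88, 7.32 and 7.28, all above the naive arrays, at a difference of 1.44 ± 0.29 (limma adjusted p 0.00135). Intermediate arrays of day 10 read 5.67, 5.25, 5.58 and 5.92, all below the none arrays, at -1.68 ± 0.31 (limma adjusted p 0.000776). High arrays read 6.0, 6.47, 6.59 and 5.78, at -1.08 ± 0.31 against none (limma adjusted p 0.0285), with 2 of 4 within the none range. The first 2 of these differences were called in every alternative, and the last was lost without high replicate 2 or 5 or without none replicate 2.

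On day 30 Ppp1r15a read 8.15, 7.90, 7.73, 6.80 and 7.05 with low antigen, 6.35, 6.77, 6.95, 7.07 and 6.36 with none, 5.73 to 7.0 with intermediate antigen and 6.86 to 7.54 in the off group. Low minus none was 0.83 ± 0.29 there and was not called (limma adjusted p 0.218). Neither difference between days was called, at 1.51 ± 0.41 (limma adjusted p 0.327) for low and 1.41 ± 0.43 (0.397) for intermediate.

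Heat shock and immediate early genes, which cell handling and sorting can also induce, changed in some of the same contrasts as Ppp1r15a and Atf6. With intermediate against none on day 10, 4 of the 16 genes of that list were called lower: Hspa1b by -3.46, Hspa1a by -3.10, Jun by -2.89 and Fos by -1.50. Egr1 was called higher by 1.54. The mean of the list was 5.97 to 6.12 on intermediate arrays, and 6.17, 7.27, 6.81, 7.01 and 6.93 on none arrays of day 10. In that none group the arrays with the highest and the lowest Ppp1r15a, replicates 2 and 1, also had the highest and the lowest list means, whereas in the low group of day 30 the array with the highest Ppp1r15a, replicate 1, had the lowest list mean of its group, 7.03. With intermediate against none on day 30 the group means went opposite ways, the list 6.75 against 6.29 and Ppp1r15a 6.43 against 6.70. With low against none on day 30, where Atf6 rose, 4 of 16 were called higher: Hspa1a by 4.02, Hspa1b by 3.34, Dusp1 by 1.23 and Hsp90aa1 by 0.60, with list means of 7.03 to 7.29 against 6.11 to 6.47. With none of day 10 against naive cells, where both Ppp1r15a and Atf6 rose, the list mean was 6.84 against 6.28. None replicate 1, at 6.17, lay below all naive arrays (6.19 to 6.45). The part of these genes in the Ppp1r15a and Atf6 results was not tested. For Atf6 the pattern was mixed too. From day 10 to day 30 without antigen the list mean went from 6.84 to 6.29 as Atf6 fell, and intermediate replicate 4 of day 30 had the lowest list mean (6.09) and the lowest Atf6 (4.83) of its group. The intermediate arrays of day 10 had list means below all others of that day with Atf6 at 5.60 to 6.31.

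**Figure D5:**
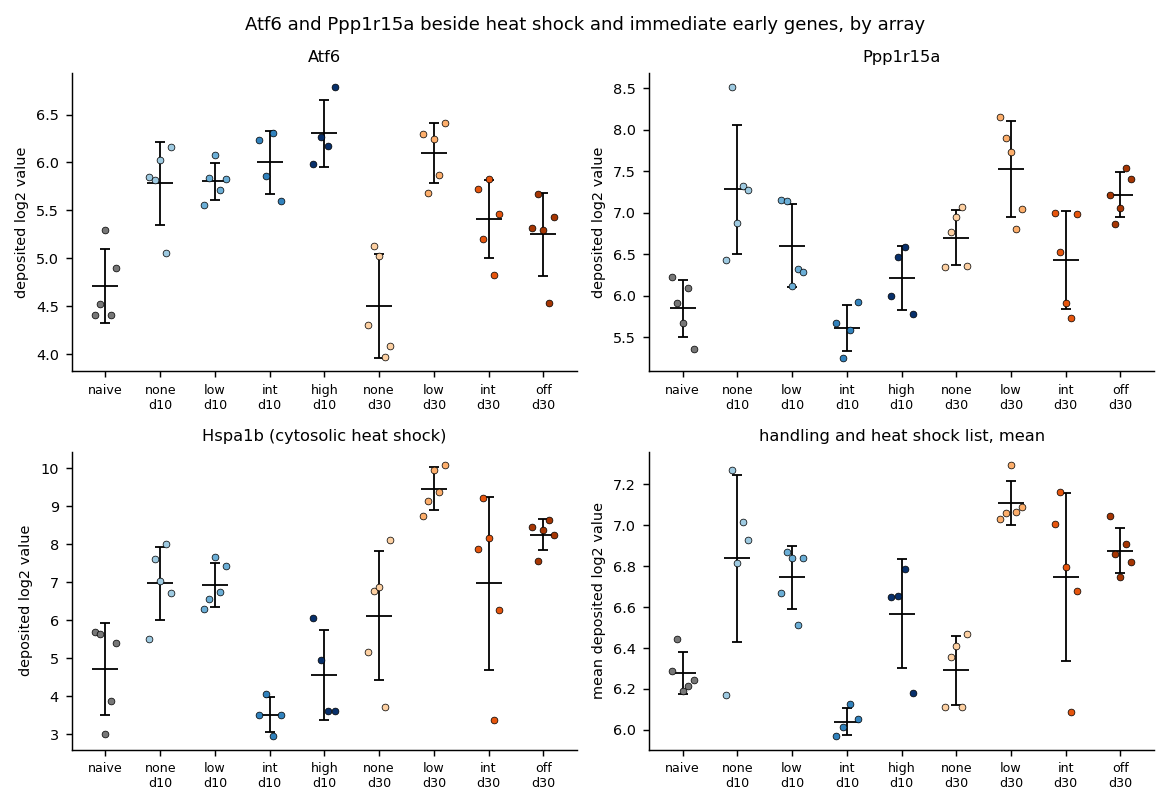
Deposited log2 values of Atf6, Ppp1r15a and Hspa1b, and the mean of 16 handling and heat shock genes, 1 point per array, with mean and SD in each of the 9 groups. Ppp1r15a and the heat shock panels are low together in the intermediate group of day 10 and high together in the low group of day 30, but not in the intermediate group of day 30, while Atf6 is low in naive cells and in the none group of day 30.

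The remaining day 30 contrasts gave no call among the members. Off against none, which asks what is left after antigen was withdrawn on day 10, had 0 of 33 members called by limma where 0.266% of all genes were. Hspa5, which was not called, had no overlap between its groups: none arrays read 7.70, 7.44, 7.76, 7.45 and 7.62 and off arrays 8.11, 8.43, 7.79, 7.97 and 7.78, a difference of 0.42 ± 0.15 (limma adjusted p 0.236). Low arrays of Hspa5 read 7.91, 8.12, 8.24, 7.89 and 8.11, also above all none arrays, and were not called at 0.46 ± 0.15 (limma adjusted p 0.155). How many of all genes had groups without overlap in these contrasts was not counted. Off against intermediate had 0 of 33 members called where 0.464% of all genes were. Calr differed by 0.40 and Ppp1r15a by 0.79 there, neither of them called. In the off group 2 neutrophil genes, S100a8 and S100a9, were 3.44 and 2.87 higher than with none. Of the sensors and factors, Ern1, Eif2ak3, Xbp1, Atf4 and Ddit3 had differences of -0.25 to 0.28 in low, intermediate and off against none on day 30, and none was called. Hspa5 differed by 0.25 between intermediate and none (limma adjusted p 0.498). Off against intermediate, these 5 with Atf6 and Hspa5 ranged from -0.23 (Eif2ak3) to 0.26 (Atf4).

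The naive comparisons set primed cells against cells that the titles call naive, with time, recipients and doxycycline differing too. The naive arrays were high in receptor-induced genes, with a list mean of 6.71 against 5.44 in the none group of day 10 and 5.49 in that of day 30. Nr4a1, an immediate target of the receptor, read 8.15 to 8.75 in naive cells and 5.21 to 6.38 in the none group of day 10, and Tnfrsf9 (4-1BB) 7.45 to 8.45 and 4.35 to 5.11. Other genes of that list lay close together, with group means in naive cells and the none group of day 10 of 5.16 and 5.09 for Lag3 and 3.60 and 3.41 for Nr4a2. The part of the receptor-induced genes in the differences from naive cells was not tested. Without antigen on day 10, 3 of 33 members were higher than in naive cells, where 1.9% of all genes were: Ppp1r15a by 1.44, Atf6 by 1.07 and Ppp1r15b by 0.69. With intermediate antigen 3 were higher, where 2.14% of all genes were: Atf6 by 1.29, Ppp1r15b by 0.85 and Hsp90b1 by 0.41. Without naive replicates 3 and 4 only Atf6 was called there, Hsp90b1 having a limma adjusted p of 0.0503, and the Hsp90b1 call was also lost without intermediate replicate 3 (0.0612) or 4 (0.0548). With high antigen 9 were higher, where 2.91% of all genes were. These 9 were Atf6 (1.59), Xbp1 (0.94), Hspa5 (0.65), Hsp90b1 (0.53), Hyou1 (0.99), Sdf2l1 (1.12), Calr (0.66), Pdia3 (0.61) and P4hb (0.86). These comparisons share the naive arrays.

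Xbp1, the factor spliced by Ern1 that drives the secretory program, was called only in this last contrast. Its naive arrays read 5.47, 5.19, 4.84, 5.16 and 4.70 and its high arrays 5.82, 6.19, 6.45 and 5.60, without overlap, at 0.94 ± 0.23 (limma adjusted p 0.00703). Hspa5 read 7.60, 7.54, 7.56, 7.17 and 7.37 in naive cells and 7.80, 8.11, 8.47 and 8.01 with high antigen, also without overlap, at 0.65 ± 0.16 (limma adjusted p 0.00619). Both calls were lost without high replicate 4. The number of calls went from 9 to 2 without that array, to 5 without high replicate 3, and to 2 in a fit of only the high and naive arrays. Atf6 and Hsp90b1 were called with high against naive in every alternative. Naive cells had cell cycle means of 4.84 to 5.50, which overlapped those of the high arrays.

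Ppp1r15b, the constitutive counterpart of Ppp1r15a in the eIF2 phosphatase, was higher than naive in both day 10 groups above and on day 30 without antigen (0.67 ± 0.19, limma adjusted p 0.0328). Naive arrays read 5.67, 6.0, 5.27, 5.85 and 6.18, and the day 10 none arrays 6.81, 6.33, 6.26, 6.22 and 6.78, all above them. All 3 calls were lost without naive replicates 3 and 4, the arrays with the highest B cell and myeloid marker means (limma adjusted p 0.386, 0.13 and 0.228). Hspa5, Xbp1, Ern1, Atf4, Ddit3 and Eif2ak3 had differences from naive of -0.34 to 0.61 on day 10 without antigen and -0.16 to 0.44 with intermediate antigen, and none was called. With high antigen Ern1, Eif2ak3, Atf4 and Ddit3 ranged from -0.51 (Ddit3, limma adjusted p 0.366) to 0.12 (Ern1), also without a call.

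On day 30 without antigen 2 of 33 members were higher than in naive cells, where 1.98% of all genes were: Ppp1r15b and Edem1. Edem1, a lectin that passes misfolded glycoproteins to degradation, read 6.28, 6.36, 5.61, 5.98 and 5.55 in naive cells and 6.59, 7.12, 7.30, 7.09 and 7.46 on day 30, without overlap, at 1.16 ± 0.23 (limma adjusted p 0.0012). It has a second probe set, whose group mean was 6.65 in naive cells and 6.55 on day 30 without antigen, so the rise was seen with 1 of its 2 probe sets and was not called on their mean (limma adjusted p 0.0932). The sensors, factors and Hspa5 ranged from -0.24 (Ddit3) to 0.27 (Eif2ak3) in this contrast and were not called.

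Between day 10 and day 30 a few members fell. Without antigen 2 of 33 members were lower on day 30, where 1.93% of all genes were: Atf6, above, and Syvn1 (HRD1), the ubiquitin ligase of endoplasmic reticulum-associated degradation. Syvn1 read 7.30, 6.82, 7.09, 7.30 and 7.42 on day 10 and 6.34, 6.30, 6.63, 6.33 and 6.22 on day 30, all lower, at -0.82 ± 0.22 (limma adjusted p 0.0255). The Syvn1 call was lost without none replicates 1 or 5 of day 10 or 5 of day 30. With intermediate antigen 1 of 33 was lower, where 0.365% of all genes were: Hyou1, a large chaperone that recharges BiP, at -1.10 ± 0.25 (limma adjusted p 0.0205). It read 5.77, 6.63, 6.47 and 6.30 on day 10 and 5.45, 4.81, 4.82, 5.09 and 5.78 on day 30, with 1 day 30 array just inside the day 10 range. That call was lost without intermediate replicate 2 or 3 of either day. In the same contrast the mean of the isomerases and lectin chaperones was 7.89 to 8.19 on day 10 and 7.46 to 7.85 on day 30. None of the 5 was called, Calr being nearest at -0.60 ± 0.17 (limma adjusted p 0.0757). How often ranges lie so far apart for other lists of genes was not counted. The sensors, factors and Hspa5 were not called there, from -0.59 (Atf6, limma adjusted p 0.343) to 0.24 (Hspa5), and without antigen those other than Atf6 ranged from -0.34 (Eif2ak3) to 0.09 (Ddit3).

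Over all 16 comparisons 15 of the 33 members were called at least once and 18 in none, where 15% of all genes were called at least once. All 15 were among the 27 members with a mean level of 4 or above, and of the 8411 genes at that level 28.8% were called at least once. The 18 include Ern1, Atf4 and Ddit3 at the head of the pathway and Trib3, Chac1, Asns and Sesn2 at its end. Atf4 kept its group means within 9.18 to 9.62, and Ddit3 within 6.91 to 7.42, the lowest being the high group of day 10. Of 32 calls of single members, 10 were kept in every alternative: Atf6 in 5 comparisons, Ppp1r15a in 2, and P4hb and Sdf2l1 with high against none and Hsp90b1 with high against naive.

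Beyond the 34 members, 5 further lists of the pathway, 133 measured genes, were counted in the same fit. With high against none on day 10, 9 of the 133 were called higher and 1 lower, a share to be read against the 2.77% and 2.48% of all genes. Of 37 genes for translocation, glycosylation and folding 3 were higher, the translocon-associated Ssr1 (0.80) and Ssr4 (0.77) and the prolyl isomerase Fkbp2 (0.74). Of 18 degradation genes 2 were higher, Ngly1 (1.01), which strips sugars from misfolded proteins, and Selenos (0.95). Of 25 traffic genes 3 were higher, Ergic1 (0.89), Tmed10 (0.60) and the retrieval receptor Kdelr2 (0.60), and the COPII coat subunit Sec24a was lower (-1.07). Of 34 Atf4 and CHOP targets 1 was higher, Psat1 (0.96) of serine synthesis, and of 19 regulators 0 were called.

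Set against intermediate antigen, Psat1 (1.24), Fkbp2 (1.27), Ssr4 (0.95) and Selenos (0.91) were higher with high antigen and the kinase Eif2ak2 was lower (-1.11), 5 calls among the 133 where 2.99% of all genes were called in either direction. With low against none 0 of the 133 were called on day 10 and 0 on day 30 by limma, with 10 and 13 at an unadjusted p under 0.05, where 760 and 2443 of the 22180 genes were. With intermediate against none there were 3 calls on day 10, Ergic1 (1.22), Ssr2 (0.90) and Stt3b (-0.82), and 2 on day 30, Ngly1 (1.05) and Eif2ak1 (0.99), where 1.24% and 2.21% of all genes were called. Between day 10 and day 30 with intermediate antigen Ddit4, an Atf4 target that restrains mTOR, fell by 2.19 on the log2 scale (limma adjusted p 0.00305). With high antigen against naive cells 9 of the 133 were called higher and 0 lower, where 2.91% of all genes were called higher, led by Ngly1 (1.23) and Selenos (1.00).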

How the data were processed

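RNA of sorted cells was amplified and hybridised to 43 single-colour arrays, 1 sample each. The authors deposited log2 values per probe set, which were used as given; the log2 scale was judged from their range of 1.46 to 13.87, and the normalization is not given in the sources used here. The array has 41345 probe sets: 1 symbol was given for 23521 of them, more than 1 for 1814, and no symbol for 16010. The single-symbol probe set with the highest mean was kept per gene, which left 22180 genes, and 1082 symbols had several.

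All arrays entered 1 limma 3.58.1 model (R 4.3.3) with a mean per group and a trended variance prior, with calls made at 0.05 after Benjamini-Hochberg adjustment across the 22180 genes. No intensity filter was set. The members, lists and motifs were chosen with earlier results of these data known, and the test of the low effect between days was added after values were seen. Called members were named first, with Ern1, Eif2ak3, Atf6, Xbp1, Atf4, Ddit3 and Hspa5 whatever their values, and up to 4 called genes per further list; Canx, Creld2, Edem1 and other uncalled members named with a value were chosen after their values were seen. On simulated data for high against none on day 10 (50 genes per size, 22180 genes), 14% of changes of log2 0.5 were recovered, 70% of 1, 88% of 1.5 and 96% of 2, with 15 false calls of 149. The planted genes were at level 4 or above, and each gene had 1 spread in all groups, so these shares need not hold for the data. Samples were not paired by replicate number in the model. Same-numbered arrays did not deviate together, which cannot exclude a shared animal or sort day. Alternatives were median centring, quantile normalization, a level filter, another probe set rule, array weights, an untrended prior, fits of only the groups compared, a replicate block, and leaving out arrays. Promoters came from RefSeq (GRCm38.p6).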

Additional observations from a re-analysis of the deposited data

Results flagged for a closer look

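In the high group of day 10, P4hb on the array of replicate 5 lay far below the other arrays of its group, at 6.87 against 7.70 for the nearest, a gap of 0.93 of the group's whole range. Among 57 groups of values checked this was the only such array, and chance alone sets about 1 in 20 groups apart. Without that array P4hb was still called higher than with none.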

How the results depend on the processing

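Of 616 values for 32 calls of single members under the alternatives, 513 kept their call, 103 lost it and 0 changed direction; 10 calls held throughout. The number of members called on leaving out 1 array at a time ranged from 3 to 8 for high against none on day 10, 0 to 2 for high against intermediate, 0 to 2 for intermediate against none on day 30, 2 to 9 for high, 1 to 3 for day 30 none against naive, 1 to 2 and 0 to 1 between days without and with intermediate antigen, and 0 to 1 for the low effect between days.

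With array weights the number was 2 for intermediate against none and for high against intermediate on day 10, 0 for intermediate against none on day 30, 5 and 1 for none of day 10 and of day 30 against naive, 2 for intermediate between days and 1 for the low effect between days. In fits of only the groups compared it was 3 for high against none, 0 for high against intermediate, 0 for intermediate against none on day 30, 2 for high and 1 for day 30 none against naive, and 0 for intermediate between days. With quantile normalization it was 2 for high against intermediate, 0 for intermediate against none on day 30, 4 for day 30 none against naive and 1 for none between days. With genes at level 4 or above it was 5 for day 30 none against naive, 2 for intermediate between days and 1 for the low effect; with the mean of all probe sets, 1 for day 30 none against naive. Without naive replicates 3 and 4 it was 1 for intermediate of day 10 and for day 30 none against naive. Without those, none replicate 4 and high replicate 2 of day 10, it was 1 for day 30 none against naive, 2 for intermediate between days and 1 for the low effect. Fewer samples enter some of these fits; otherwise the cause was not tested.

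The median in place of the mean over members gave 0.26 for low and 0.28 for intermediate against none on day 10, -0.0125 for high against intermediate, -0.028 for intermediate against none and 0.19 for off against intermediate on day 30, 0.48 and 0.26 for intermediate of day 10 and none of day 30 against naive, 0.052 and -0.26 between days without and with intermediate antigen, and -0.31 and -0.11 for the intermediate and low effects between days.

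Replicate numbers were shared between groups, but same-numbered arrays did not deviate together: r was -0.18 to 0.12 over 24 pairs on day 10 and -0.03 to 0.06 over 30 pairs on day 30, and 8 of 38 arrays correlated best with their own number. With the replicate block 8 members were called for high against none on day 10, and 1 for the low effect between days, Atf6. With array medians of 3.28 to 3.44 and 6 members near them, low signal limits what could be seen for those genes.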
